A study of Mus musculus with 7 samples.

Results

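The Il1rl1, Il18r1 and Il18rap genes lie side by side on mouse chromosome 1 and encode 3 receptor chains of the interleukin-1 receptor family. The cluster was chosen by position, as 40.44 to 40.64 Mb of chromosome 1 in the mm9 genome build, with earlier results of these reads known, so what made the locus stand out at first is described here and not tested. It holds 3 genes, 200 of the 2638947 1 kb bins of the genome, and 11 of the 25645 regions in which reads of the chromatin remodeller BRG1 were enriched over input in at least 1 library. The spans used were 40.486 to 40.522 Mb for Il1rl1, 40.522 to 40.558 Mb for Il18r1 and 40.572 to 40.609 Mb for Il18rap, all read left to right. They are approximate positions to the nearest 1 kb, since no mm9 annotation was used. In the RefSeq table Il1rl2 comes just before the cluster and Slc9a4 just after it.

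BRG1 binding was measured by ChIP-seq, the sequencing of DNA precipitated with an antibody to a chromatin protein, in 6 libraries of CD4+ T cells from Balb/c mice aged 4 to 6 weeks, with 1 library per group and 1 input library of pooled T helper cell DNA. Naive CD4+CD62L+ cells from spleen and lymph nodes were 95% pure. Th17 cells were grown with soluble anti-CD3 at 4 µg/ml, anti-CD28 at 1 µg/ml, TGF-β (1 ng/ml), IL-23 (10 ng/ml), IL-6 (100 ng/ml), IL-1β (10 ng/ml), and antibodies to IL-4 and IFN-γ at 10 µg/ml each. Th1 cells were grown on coated anti-CD3 at 1 µg/ml and anti-CD28 at 2 µg/ml with IL-12 at 1 ng/ml and anti-IL-4 at 10 µg/ml, and IL-2 at 100 U/ml was added at 24 h. Th2 cells were grown on the same coat with IL-4 at 10 ng/ml and anti-IFN-γ at 10 µg/ml, again with IL-2 at 100 U/ml at 24 h. Stimulated Th17, Th1 and Th2 cells were given PMA at 50 ng/ml, a phorbol ester that activates protein kinase C, and ionomycin at 500 ng/ml, a calcium ionophore, for 1.5 h. Resting Th1 and Th2 cells and naive cells were not restimulated, and no resting Th17 library was analysed here. With 1 library per group, each comparison is between libraries and not between conditions, and no replicate spread and no p-value can be given. The ChIP-seq files hold no expression values, so the labelled cell types were not checked against marker genes.

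BRG1 is the ATPase of SWI/SNF complexes, which slide or remove nucleosomes at promoters and enhancers. Il1rl1 encodes ST2, the receptor for IL-33, which is known from Th2 cells and mast cells and is made in a membrane form and a soluble form. Il18r1 encodes the IL-18 receptor chain that binds IL-18, and Il18rap encodes the accessory chain needed for signalling. The IL-18 receptor is known in Th1 cells, where IL-18 acts with IL-12 to raise IFN-γ.

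The sequences before the gene starts are shown because reads at these 3 starts are the main measure of each gene below. They are from RefSeq on GRCm38.p6, all on the plus strand, and their coordinates cannot be set beside the mm9 read positions. Capitals mark matches to the GATA motif GATAA, which is bound by the GATA family that includes the Th2 factor GATA3, to the RUNX motif TGTGGT or to the STAT motif TTCNNNGAA. RefSeq lists a second Il1rl1 start 10059 bases after the first. Reads below were counted at 1 Il1rl1 start, taken as the first from its spacing to Il18r1. The second was not counted as a start, so the pattern at the Il1rl1 start covers 1 of the 2.
Il1rl1, first start, chr1:40429320-40429569: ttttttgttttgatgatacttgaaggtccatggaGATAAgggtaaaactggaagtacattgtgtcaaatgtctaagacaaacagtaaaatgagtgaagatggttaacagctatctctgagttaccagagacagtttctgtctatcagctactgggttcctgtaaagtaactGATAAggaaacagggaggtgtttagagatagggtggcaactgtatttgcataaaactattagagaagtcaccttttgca
Il1rl1, second start, chr1:40439379-40439628: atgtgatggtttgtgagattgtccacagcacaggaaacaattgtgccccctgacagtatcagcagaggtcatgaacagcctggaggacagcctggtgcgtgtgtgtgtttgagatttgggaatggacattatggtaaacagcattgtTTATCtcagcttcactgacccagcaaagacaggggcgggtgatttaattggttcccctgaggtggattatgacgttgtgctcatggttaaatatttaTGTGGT
Il18r1, first of 3 starts, chr1:40465419-40465551: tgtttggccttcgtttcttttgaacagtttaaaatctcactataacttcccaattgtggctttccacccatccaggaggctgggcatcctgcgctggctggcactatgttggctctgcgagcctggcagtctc
Il18r1, last of 3 starts, chr1:40465756-40466005: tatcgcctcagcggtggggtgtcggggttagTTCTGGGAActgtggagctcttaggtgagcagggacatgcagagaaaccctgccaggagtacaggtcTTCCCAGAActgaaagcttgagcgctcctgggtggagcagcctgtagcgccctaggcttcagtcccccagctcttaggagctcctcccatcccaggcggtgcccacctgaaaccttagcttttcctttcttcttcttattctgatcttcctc
Il18rap, chr1:40515112-40515361: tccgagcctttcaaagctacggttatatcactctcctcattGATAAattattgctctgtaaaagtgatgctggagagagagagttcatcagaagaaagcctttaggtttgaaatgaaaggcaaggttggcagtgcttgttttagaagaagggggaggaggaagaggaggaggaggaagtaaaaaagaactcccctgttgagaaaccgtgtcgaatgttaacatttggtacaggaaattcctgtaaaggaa
The first Il18r1 stretch is 133 bases long because 117 bases of its window belong to the end of Il1rl1 and were left out. Both strands were searched for the GATA motif GATAA, the RUNX motif TGTGGT, the AP-1 motif TGANTCA, the STAT motif TTCNNNGAA and the T-box motif GGTGTGA. The first Il1rl1 window held 2 GATAA matches, the second held 1 on the minus strand (printed TTATC) and 1 TGTGGT, Il18rap held 1 GATAA, and the windows of the first and second Il18r1 starts held none of the 5 motifs. The window of the last Il18r1 start held 2 STAT matches, as 0.317% of all promoter windows did. Of 32851 RefSeq promoter windows of this length, 22.6% held GATAA and 4.28% held at least 2 matches. TGTGGT was in 14.0%, STAT in 7.02%, AP-1 in 6.75% and the T-box motif in 3.33%. A match is a description of the letters and not a binding site.

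After repeated reads at a position and strand were counted once, the libraries held 7892944, 3917492 and 4261900 distinct reads for stimulated Th17, Th1 and Th2, 1808000 and 1340208 for resting Th1 and Th2, 2071800 for naive cells and 3531867 for input. Levels are reads per 1000000 distinct reads (RPM), and intervals are exact 95% intervals that cover counting error only. In bulk chromatin, fewer bound cells and less BRG1 per cell cannot be told apart.

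The cluster as a whole held more reads per 1000000 than input in every library but the naive one. It had 1821, 821 and 964 reads in stimulated Th17, Th1 and Th2, 284 and 204 in resting Th1 and Th2 and 250 in naive cells, against 410 in input. These are levels of 231, 210, 226, 157, 152 and 121 RPM in the same order, against 116 RPM in input. The 3 stimulated libraries were close together, the 2 resting ones lower and the naive one at the input level. The ratio to input was 1.99 (1.78 to 2.22), 1.81 (1.60 to 2.04) and 1.95 (1.73 to 2.19) in stimulated Th17, Th1 and Th2, 1.35 (1.16 to 1.58) and 1.31 (1.10 to 1.55) in resting Th1 and Th2, and 1.04 (0.885 to 1.22) in naive cells. Of 12383 other 200 kb stretches of the genome, 95.2%, 93.9% and 96.1% had a lower ratio in stimulated Th17, Th1 and Th2, 91.5% and 86.7% in resting Th1 and Th2, and 57.0% in naive cells. The locus therefore ranked high in the 5 effector libraries and near the middle in naive cells. The 200 kb stretches whose levels over the 6 BRG1 libraries were most like those of the locus, of 4491 compared, were chr4:126640001-126840000 with a correlation of 0.998, chr9:61640001-61840000 with 0.994 and chr2:167640001-167840000 with 0.988. These correlations are a description over 6 libraries, with the same libraries and input behind every stretch, and no function is read from them.

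**Figure D1:**
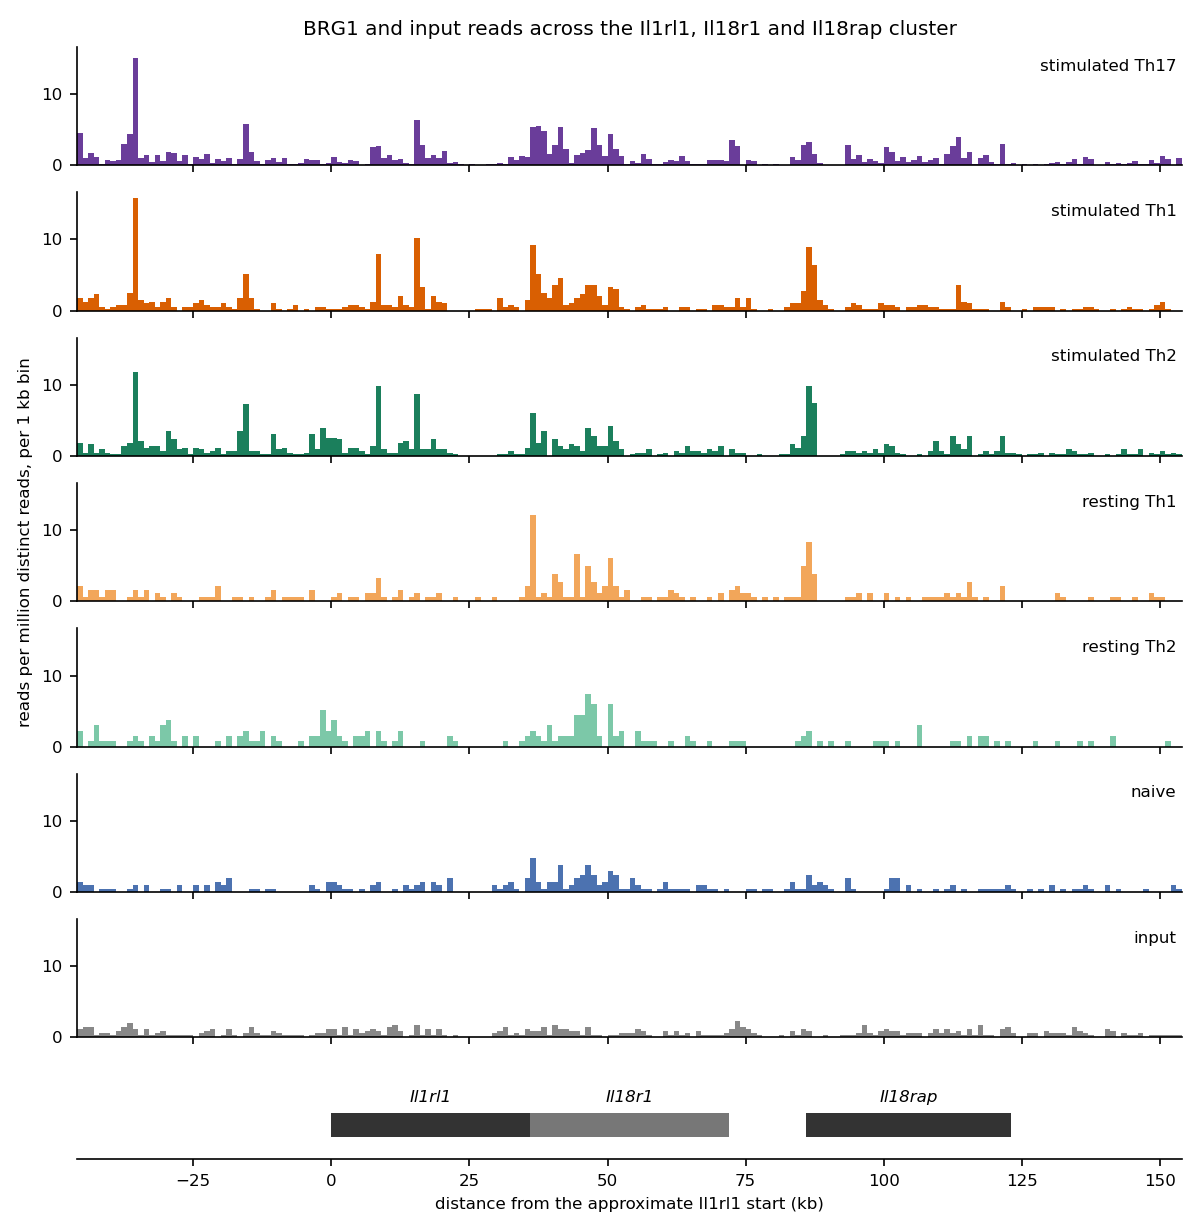
Distinct reads per 1000000 in 1 kb bins across the locus, 1 panel per library with stimulated libraries at the top and input at the bottom, against distance in kb from the approximate Il1rl1 start. The gene spans are drawn at the bottom. The tallest bin of all 3 stimulated libraries lies about 35 kb before Il1rl1, at 15.1, 15.8 and 11.7 RPM in stimulated Th17, Th1 and Th2.

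Stimulated libraries held more of the cluster's reads than resting ones on the read-total scale. The ratio of levels was 1.33 (1.16 to 1.53) for stimulated over resting Th1, where 87.0% of other stretches had a lower one, and 1.49 (1.28 to 1.74) for stimulated over resting Th2, where 95.2% did. It was 1.30 (1.09 to 1.55) for resting Th1 over naive, 1.26 (1.04 to 1.52) for resting Th2 over naive and 1.03 (0.859 to 1.24) for resting Th1 over resting Th2. Among stimulated libraries it was 0.927 (0.843 to 1.02) for Th1 over Th2, 1.10 (1.01 to 1.20) for Th17 over Th1 and 1.02 (0.943 to 1.10) for Th17 over Th2. The scale matters here, because the median log2 ratio over enriched regions of the genome was 0.58 for stimulated over resting Th1, 0.33 for stimulated over resting Th2, 0.68 for resting Th1 over naive, 0.76 for resting Th2 over naive, -0.17 for resting Th1 over Th2, 0.12 for stimulated Th1 over Th2, -0.79 for stimulated Th17 over Th1 and -0.68 for stimulated Th17 over Th2. Relative to those medians the cluster ratio was 0.889 for stimulated over resting Th1, 0.811 for resting Th1 over naive and 0.745 for resting Th2 over naive, all turned below 1, while that of stimulated over resting Th2 was 1.18. On that scale stimulated Th17 stood above the other stimulated libraries, with a ratio of 1.90 over Th1 and 1.64 over Th2. In bins without regions the genome-wide ratio was 1.079 for stimulated Th17 over Th1 and 1.053 over Th2, near the cluster's 1.10 and 1.02. Set against those bins, the cluster showed no such excess in stimulated Th17.

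In every BRG1 library most of the locus reads lay outside the enriched regions, which held a larger share than in input. The 11 regions, each found with all libraries thinned to 1340208 reads, cover 3600 bases and held 11.9% (10.5 to 13.5), 23.9% (21.0 to 26.9) and 22.1% (19.5 to 24.8) of the locus reads in stimulated Th17, Th1 and Th2, 17.3% (13.0 to 22.2) and 18.1% (13.1 to 24.1) in resting Th1 and Th2, and 9.6% (6.25 to 13.9) in naive cells, against 2.20% (1.01 to 4.13) in input. Over the genome, all regions together held 7.30%, 12.7% and 11.8% of reads in stimulated Th17, Th1 and Th2, 9.09% and 10.4% in resting Th1 and Th2 and 5.69% in naive cells, against 2.39% in input. The regions were selected on these reads, so the excess over input is a description. Of the 11, 3 lie before Il1rl1, 2 in Il1rl1, 4 in Il18r1 and 2 in Il18rap. The number found was 3, 5 and 8 in stimulated Th17, Th1 and Th2, 2 and 3 in resting Th1 and Th2, and 0 in naive cells. Genome-wide it was 6173, 11417 and 10826 in stimulated Th17, Th1 and Th2, 7035 and 8515 in resting Th1 and Th2, and 3104 in naive cells. Of the 11, 7 were found in no unstimulated library, against 50.1% of all 25645 regions.

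**Figure D2:**
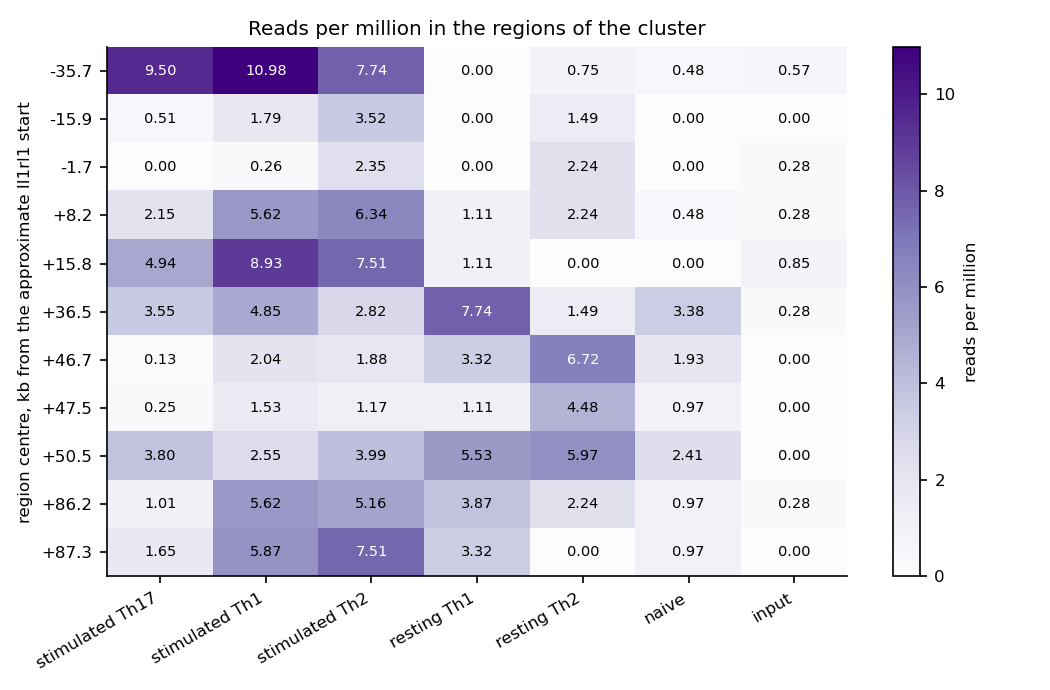
Distinct reads per 1000000 in each of the 11 enriched regions (rows, by distance of the region's centre in kb from the Il1rl1 start) and each library (columns, 1 per group), printed in the cells and shaded on a linear scale. The region 35.7 kb before Il1rl1 is the highest in all 3 stimulated libraries and is at or near 0 in the unstimulated ones.

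Stimulation was marked by 1 region above all, before Il1rl1. The region at chr1:40450201-40450400, 35.7 kb before the Il1rl1 start, had 75 reads in stimulated Th17, 43 in stimulated Th1 and 33 in stimulated Th2, against 0 in resting Th1, 1 in resting Th2, 1 in naive cells and 2 in input. That is 9.50, 10.98 and 7.74 RPM in stimulated Th17, Th1 and Th2. With repeated reads kept, the region held 183, 72 and 53 reads in stimulated Th17, Th1 and Th2. A larger part was dropped in Th17 than in Th1 or Th2, so the order of Th17 and Th1 here depends on this step. Reads fell on both strands in each stimulated library, 33 plus and 42 minus in Th17, 19 and 24 in Th1, and 15 and 18 in Th2, so neither strand alone made up the signal. Other regions were less even, with 8 plus and 27 minus reads in stimulated Th1 and 7 and 25 in stimulated Th2 at the region 15.8 kb into Il1rl1, 22 and 5 in stimulated Th2 at the one 8.2 kb into it, and 4 and 19 in stimulated Th1 at the second Il18rap region. All 3 stimulated libraries were far above all 3 unstimulated ones. A difference was called where the pair had at least 10 reads, a ratio of at least 3-fold and an interval that leaves out 1. By that rule the region was called higher in stimulated than in resting Th1. The ratio was 6.62 with 0 resting reads set to a floor of 3, and the exact lower bound without the floor was 5.15. The region was called higher in stimulated than in resting Th2 as well, 10.4-fold (1.74 to 422). It was found only in the stimulated libraries, and the reads that selected it also enter these ratios, which favours their direction. Where regions were found and counted on separate reads, the Th1 call was left and the Th2 call was lost.

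Il1rl1 itself carried a pair of regions, the further one with the clearer separation of stimulated from unstimulated libraries. The region at chr1:40501601-40502000, 15.8 kb into the gene, had 39, 35 and 32 reads in stimulated Th17, Th1 and Th2, against 2, 0 and 0 in resting Th1, resting Th2 and naive cells and 3 in input. It was called higher in stimulated than in resting Th1, 8.08-fold (2.08 to 69.3), and in stimulated than in resting Th2. The latter ratio was 3.35 with 0 reads set to a floor of 3, and the exact lower bound was 2.57. The region at chr1:40494001-40494400, 8.2 kb into the gene, had 17, 22 and 27 reads in stimulated Th17, Th1 and Th2, against 2, 3 and 1 in resting Th1, resting Th2 and naive cells and 1 in input. If the RefSeq spacing of 10059 bases holds in mm9, it lies before the second Il1rl1 start, nearer to that start than to the first. The region was called higher in stimulated than in resting Th1, 5.08-fold (1.25 to 44.5), and missed the rule in Th2, at 2.83-fold (0.871 to 14.6). Relative to the median region ratio the Th1 value was 3.38 (0.832 to 29.7) and the call was lost. On the RPM scale stimulated Th17, at 2.15, lay just below resting Th2, at 2.24, while stimulated Th1 and Th2 lay above all unstimulated libraries. Both regions of this pair were found only in stimulated Th1 and Th2. The reads that selected them also enter the stimulated over resting ratios, which favours their direction. None of the calls at this pair was left where regions were found and counted on separate reads.

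The Il1rl1 start had another pattern, with most reads in the Th2 libraries, stimulated or resting. Within 2 kb either side of it there were 17, 5 and 49 reads in stimulated Th17, Th1 and Th2, 3 and 17 in resting Th1 and Th2 and 8 in naive cells, against 11 in input. The levels were 0.54, 0.32, 2.87, 0.41, 3.17 and 0.97 RPM per kb in that order, against 0.78 in input. Both Th2 libraries stood above input, by 3.69 (1.89 to 7.87) when stimulated and 4.07 (1.80 to 9.62) when resting, while the interval of every other library included 1. Stimulated Th1 was 9.01-fold (3.61 to 29.0) below stimulated Th2, stimulated Th17 was 5.34-fold (3.02 to 9.89) below stimulated Th2, and resting Th1 was 7.64-fold (2.21 to 40.7) below resting Th2. Resting Th2 was 3.28 times naive (1.34 to 8.79), which became 1.94 (0.794 to 5.19) relative to the median region ratio. The stimulated over resting Th2 ratio was 0.906 (0.513 to 1.68), so no difference with stimulation was detected there at this depth.

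In the order of levels at the Il1rl1 start, resting and stimulated Th2 came first and could not be separated, and then came naive, stimulated Th17, resting Th1 and stimulated Th1. Neighbours among these last 4 did not differ beyond their counting intervals. The reads are spread thinly around the start, and a region was found there only in stimulated Th2, at chr1:40484201-40484400, 1.7 kb before it. It had 0 reads in stimulated Th17, 1 in stimulated Th1 and 10 in stimulated Th2, against 0 in resting Th1, 3 in resting Th2, 0 in naive cells and 1 in input. It was called lower in stimulated Th1 than Th2, 9.19-fold (1.31 to 399). It was also called lower in stimulated Th17 than Th2, 6.17-fold with 0 reads set to a floor of 3, and the exact lower bound was 4.15. The stimulated Th2 reads that selected this region also enter these ratios, which favours their direction. Both calls were lost at equal depth, with at least 20 reads and where regions were found and counted on separate reads. Another region, 15.9 kb before the start at chr1:40470001-40470200, had 4, 7 and 15 reads in stimulated Th17, Th1 and Th2, against 0, 2 and 0 in resting Th1, resting Th2 and naive cells and 0 in input. It was called lower in stimulated Th17 than Th2, 6.94-fold (2.21 to 28.7). This region too was found only in stimulated Th2. Its call was lost at equal depth, with at least 20 reads and where regions were found and counted on separate reads. The 1 kb bin from the same base had 46, 20 and 31 reads in stimulated Th17, Th1 and Th2, or 5.83, 5.11 and 7.27 RPM. No comparison among the stimulated libraries called that bin.

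**Figure D3:**
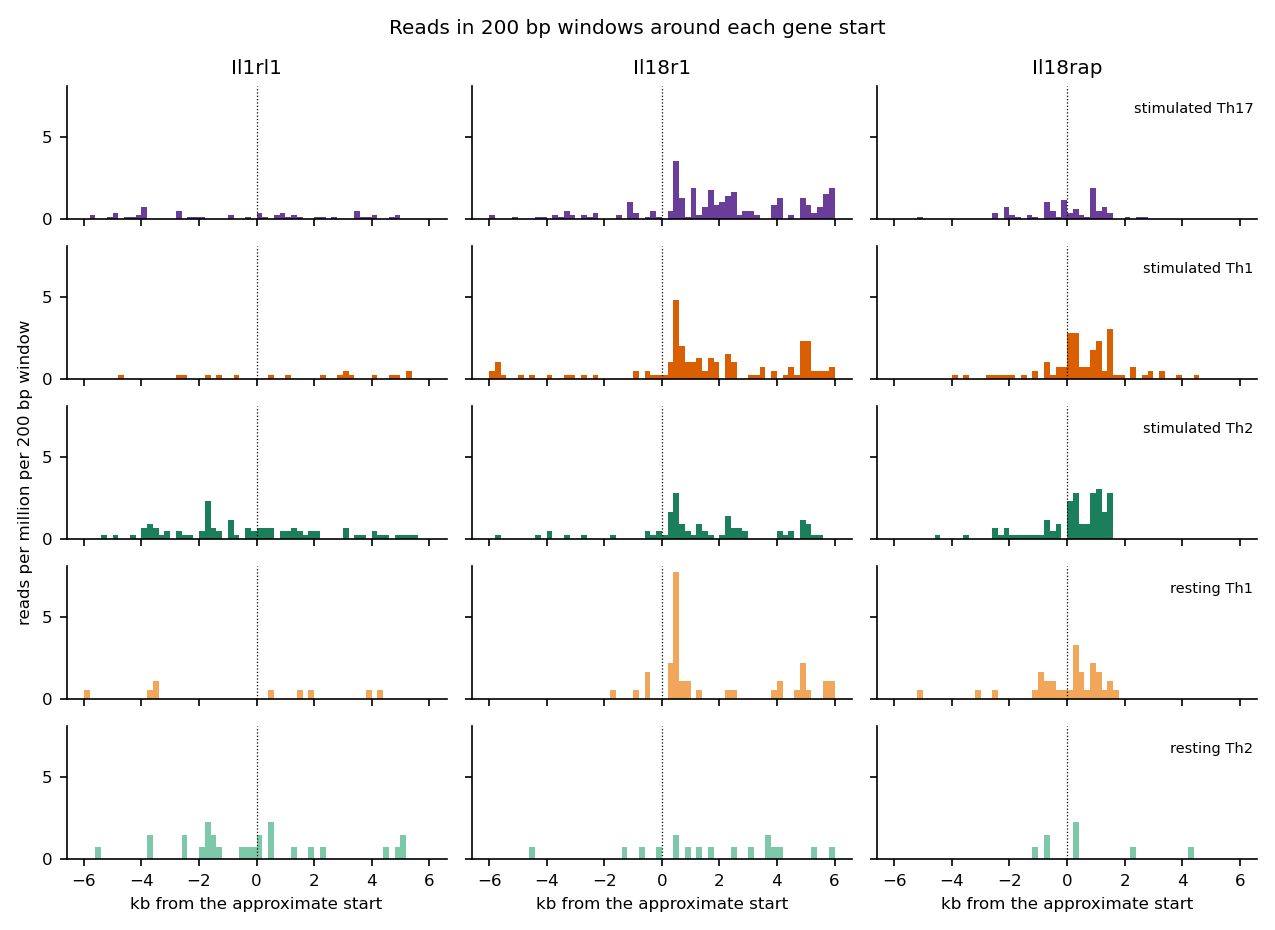
Distinct reads per 1000000 in 200 base windows around each of the 3 gene starts, in the 5 stimulated and resting libraries (rows, 1 per group), against distance in kb from the approximate start (dotted line). Th2 libraries hold most of the reads around the Il1rl1 start, and the Il18rap reads lie just after the start.

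Il18r1 was the gene with reads over input in all 6 libraries. Along its whole span, the level was 1.73, 1.55 and 1.31 RPM per kb in stimulated Th17, Th1 and Th2, 1.63 and 1.51 in resting Th1 and Th2, and 1.26 in naive cells, against 0.59 in input. Il1rl1 levels over the span were lower, 0.957, 1.16 and 1.25 in stimulated Th17, Th1 and Th2 and 0.538, 0.643 and 0.59 in resting Th1, resting Th2 and naive cells, against 0.621 RPM per kb in input. Il18rap levels over the span were 1.13, 0.993 and 1.17 in stimulated Th17, Th1 and Th2 and 0.792, 0.484 and 0.548 in resting Th1, resting Th2 and naive cells, against 0.597 RPM per kb in input. Of the 3 gene spans in naive cells, Il18r1 was the one above the input level.

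On the RPM scale both Th1 libraries had the highest levels at the Il18r1 start, followed by stimulated Th17. Within 2 kb there were 106, 62 and 40 reads in stimulated Th17, Th1 and Th2, 28 and 8 in resting Th1 and Th2 and 17 in naive cells, against 11 in input. These are 3.36, 3.96, 2.35, 3.87, 1.49 and 2.05 RPM per kb, against 0.779 in input. The ratio to input was 4.31 (2.31 to 8.90), 5.08 (2.65 to 10.7) and 3.01 (1.52 to 6.51) in stimulated Th17, Th1 and Th2, 4.97 (2.40 to 11.1) in resting Th1, 1.92 (0.67 to 5.23) in resting Th2 and 2.63 (1.16 to 6.22) in naive cells. Only resting Th2, of the 6, had an interval that included 1. None of the 8 comparisons met the 3-fold rule at this start. The nearest was resting Th1 over resting Th2 at 2.59 (1.15 to 6.59), followed by resting Th1 over naive at 1.89 (0.998 to 3.68) and stimulated Th1 over Th2 at 1.69 (1.12 to 2.58). Stimulated Th17 over Th2 was 1.43 (0.986 to 2.11), and it turned to 0.906 (0.570 to 1.46) when 2 kb were counted in place of 4 kb. Stimulated Th17 over Th1 was 0.849 (0.615 to 1.18), so these libraries could not be separated on the RPM scale. Relative to the median region ratio, stimulated Th17 over Th1 was 1.47 (1.06 to 2.04) and over Th2 was 2.30 (1.58 to 3.39). The order of levels at this start therefore depends on the scale.

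The region at the Il18r1 start, chr1:40522401-40522600, had 28, 19 and 12 reads in stimulated Th17, Th1 and Th2, 14 and 2 in resting Th1 and Th2 and 7 in naive cells, against 1 in input. It was found in 4 libraries, more than the region before Il1rl1, and was called higher in resting Th1 than Th2, 5.19-fold (1.19 to 47.0). Resting Th1 was among those 4 and resting Th2 was not, which favours the direction of this call. With at least 20 reads, or where regions were found and counted on separate reads, no region of the locus could be tested for this comparison. The 1 kb bin that holds the region was the highest of the locus in resting Th1, with 22 reads, and in naive cells, with 10 reads. Further into the gene, the region at chr1:40536201-40536800 had 30, 10 and 17 reads in stimulated Th17, Th1 and Th2, and 10, 8 and 5 in resting Th1, resting Th2 and naive cells, against 0 in input. It was found in 4 libraries as well, and no comparison called it. A weaker region 10.7 kb after the start, chr1:40532601-40532800, had 1, 8 and 8 reads in stimulated Th17, Th1 and Th2, and 6, 9 and 4 in resting Th1, resting Th2 and naive cells, against 0 in input. It was the only region called lower with stimulation, 3.58-fold (1.23 to 10.7) below resting Th2 in stimulated Th2. It was found only in resting Th2. The call was lost at equal depth, with at least 20 reads and where regions were found and counted on separate reads. The 1 kb bin around it, at 3.99 RPM in stimulated and 7.46 in resting Th2, was not called. The bin at chr1:40530001-40531000 was called lower in stimulated than in resting Th1, with 7 against 12 reads and a ratio of 0.269 (0.0898 to 0.742).

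The Il18rap start was high in resting Th1 and in stimulated Th1 and Th2, and low in resting Th2 and naive cells. It had 67, 75 and 91 reads within 2 kb in stimulated Th17, Th1 and Th2, 32 and 6 in resting Th1 and Th2 and 9 in naive cells, against 8 in input. The levels were 2.12, 4.79, 5.34, 4.42, 1.12 and 1.09 RPM per kb, against 0.566 in input. Resting Th2 and naive cells were at one low level and resting Th1 was near the stimulated Th1 and Th2 libraries. Resting Th1 was 4.07 times naive (1.90 to 9.70) and 3.95 times resting Th2 (1.63 to 11.6), and stimulated Th2 was 4.77 times resting Th2 (2.11 to 13.3). Those 3 met the rule on the read-total scale. Relative to the median region ratio resting Th1 over naive was 2.54 (1.18 to 6.05), under 3-fold, while resting Th1 over resting Th2 was 4.44 (1.83 to 13.0) and stimulated over resting Th2 was 3.79 (1.68 to 10.6). Stimulated over resting Th1 was 1.08 (0.706 to 1.69), stimulated Th1 over Th2 was 0.897 (0.652 to 1.23) and resting Th2 over naive was 1.03 (0.302 to 3.24). Stimulated Th17 was lower than stimulated Th1, at a ratio of 0.443 (0.314 to 0.625), and than stimulated Th2, at 0.398 (0.286 to 0.551), both under 3-fold. Relative to the median region these ratios were 0.766 (0.542 to 1.08) and 0.638 (0.458 to 0.884).

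**Figure D4:**
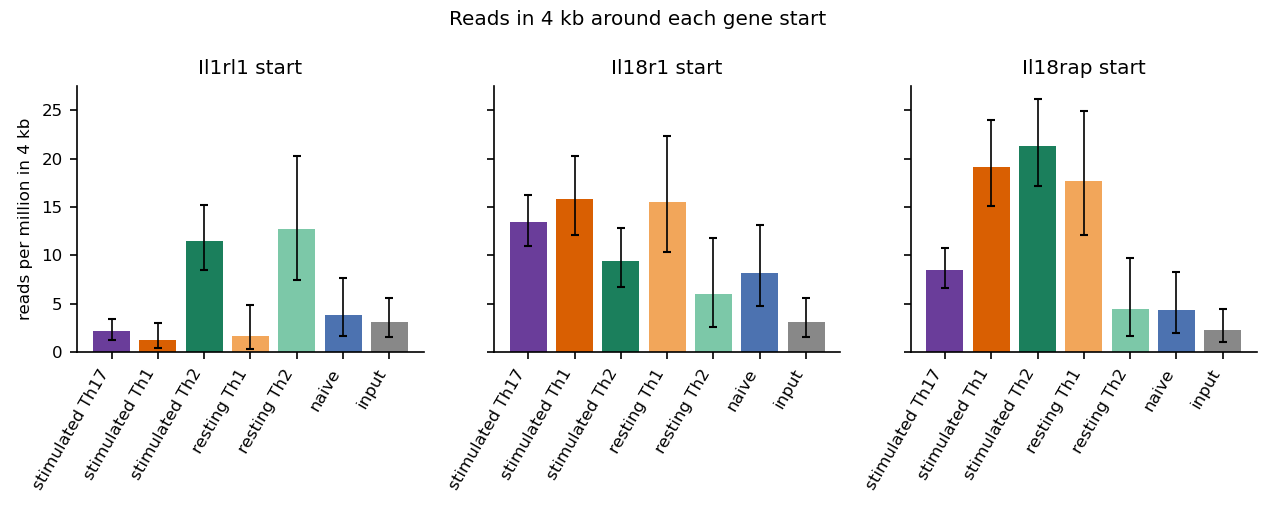
Distinct reads per 1000000 in the 4 kb around each gene start (bars, 1 library each) with exact 95% counting intervals (lines). At Il1rl1 both Th2 libraries are highest, 11.5 stimulated and 12.7 resting, and at Il18rap resting Th2 (4.48) and naive cells (4.34) are the lowest of the BRG1 libraries.

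The difference between the Th1 and Th2 stimulation ratios at Il18rap was computed as a ratio of ratios. It was 0.229 (0.0742 to 0.594) at the Il18rap start, 0.654 (0.233 to 1.66) at the Il18r1 start and 0.856 (0.148 to 6.09) at the Il1rl1 start, with the Th1 ratio on top. It rests on the read totals of all 4 libraries. Only the Il18rap interval left out 1.

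A pair of regions held 21 of the 67 start reads in stimulated Th17, 45 of 75 in stimulated Th1, 54 of 91 in stimulated Th2, 13 of 32 in resting Th1, 3 of 6 in resting Th2 and 4 of 9 in naive cells, against 1 of 8 in input. The first, chr1:40572001-40572400, 0.2 kb after the start, had 8, 22 and 22 reads in stimulated Th17, Th1 and Th2, and 7, 3 and 2 in resting Th1, resting Th2 and naive cells, against 1 in input. The second, chr1:40573001-40573600, had 13, 23 and 32 reads in stimulated Th17, Th1 and Th2, and 6, 0 and 2 in resting Th1, resting Th2 and naive cells, against 0 in input. Stimulated Th17 had the fewest reads of the stimulated libraries at both, although its library was the deepest. The first was called lower in stimulated Th17 than Th1, 5.54-fold (2.38 to 14.4), and than Th2, 5.09-fold (2.18 to 13.2). The second was called lower in stimulated Th17 than Th1, 3.56-fold (1.73 to 7.66), and than Th2, 4.56-fold (2.33 to 9.46). It was called higher in stimulated than in resting Th2, 3.35-fold with 0 reads set to a floor of 3, and the exact lower bound was 2.57. Relative to the median region ratio the second was at 0.484 (0.225 to 0.997) of stimulated Th1 and 0.352 (0.170 to 0.690) of stimulated Th2, and both Th17 calls were lost. With all libraries at equal depth the one Th17 call left was that of the first region against Th1. On regions found with all distinct reads neither Il18rap region was called between stimulated Th17 and the other stimulated libraries. At equal depth the first region was found only in stimulated Th1 and the second only in stimulated Th2. The reads that selected each region also enter the ratios of that library, which favours their direction. None of the calls at either region was left where regions were found and counted on separate reads.

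Ratios between starts within 1 library do not depend on its read total. Il1rl1 start reads over Il18r1 start reads were 0.16 (0.0901 to 0.269), 0.0806 (0.0253 to 0.199) and 1.23 (0.79 to 1.91) in stimulated Th17, Th1 and Th2, 0.107 (0.0208 to 0.347) and 2.12 (0.869 to 5.69) in resting Th1 and Th2, and 0.471 (0.176 to 1.15) in naive cells, against 1.00 (0.393 to 2.54) in input. The 2 Th1 libraries and the Th17 library leaned to Il18r1, and the 2 Th2 libraries had intervals that included 1. The ratio in stimulated Th1 was 0.067 times that in stimulated Th2 (0.0192 to 0.187), that in stimulated Th17 was 0.132 times it (0.0635 to 0.265), and that in resting Th1 was 0.0541 times that in resting Th2 (0.0081 to 0.25). Resting Th2 was 4.37 times naive (1.19 to 17.6) and resting Th1 was 0.234 times naive (0.0351 to 1.14). Il18rap over Il18r1 start reads were 0.632, 1.21 and 2.27 in stimulated Th17, Th1 and Th2, 1.14 and 0.75 in resting Th1 and Th2 and 0.529 in naive cells, against 0.727 in input. Here stimulated Th17 was 0.279 times stimulated Th2 (0.167 to 0.462) and 0.524 times stimulated Th1 (0.323 to 0.844), and stimulated Th1 was 0.533 times stimulated Th2 (0.312 to 0.904). For the 3 comparisons in which the Il18rap start was called, the same quantity included 1, at 3.01 (0.852 to 11.3) for stimulated over resting Th2, 1.52 (0.404 to 6.00) for resting Th1 over Th2 and 2.14 (0.758 to 6.38) for resting Th1 over naive.

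**Figure D5:**
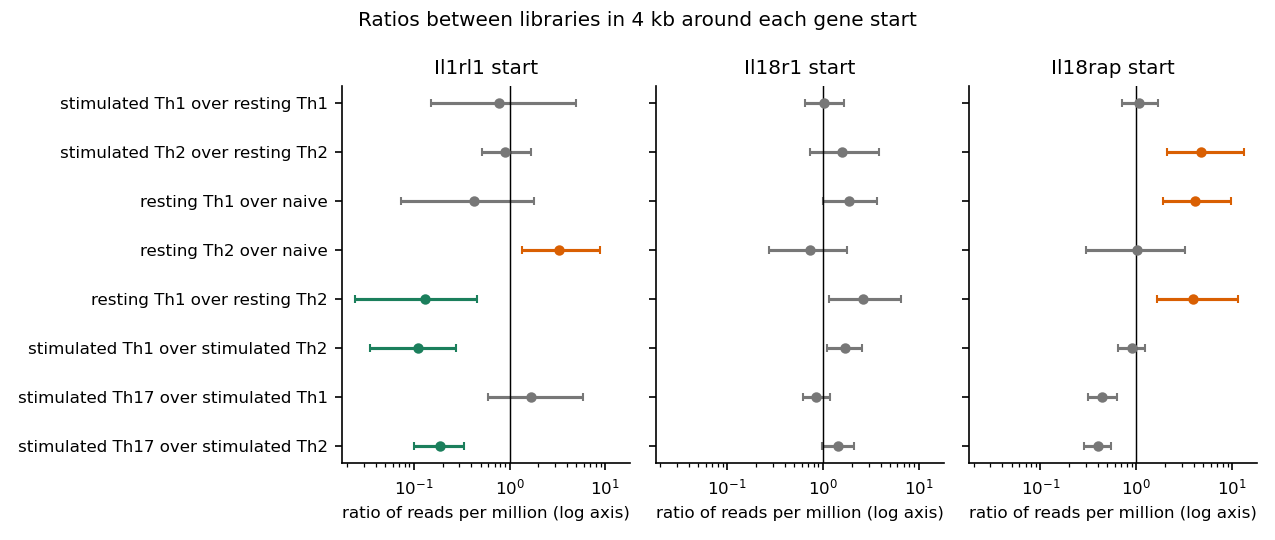
Ratio of reads within 2 kb of each gene start for the 8 comparisons (log axis), with exact 95% intervals, a vertical line at 1 and the library named first on top of the ratio; orange marks a call higher, green a call lower and grey no call. Resting Th1 over resting Th2 lies below 1 at Il1rl1 (0.131) and above 1 at Il18rap (3.95).

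The counts of calls have to be read against the genome, since the same rule calls many regions everywhere. For stimulated over resting Th1, 3 of 8 regions of the cluster with enough reads were called higher and 0 lower, against 24.1% and 4.63% of such regions genome-wide. For stimulated over resting Th2, 3 of 11 were higher and 1 lower, against 14.4% and 4.87%. For resting Th1 over naive 0 of 3 were called, against 16% higher and 0.855% lower, and for resting Th2 over naive 0 of 2, against 20.6% and 1.07%. These shares are close to the background or rest on too few regions to be read. For resting Th1 over Th2, 1 of 4 was higher and 0 lower, against 2.09% and 4.74%, and for stimulated Th1 over Th2, 0 of 11 were higher and 1 lower, against 2.44% and 3.62%. For stimulated Th17 over Th1, 0 of 8 were higher and 2 lower, against 3.42% and 16.3%, and for stimulated Th17 over Th2, 0 of 9 were higher and 4 lower, against 3.43% and 17.1%. Where regions were found in 1 set of reads and counted in another, the one call left was the region 35.7 kb before Il1rl1 in stimulated over resting Th1, with fewer regions and fewer reads to test by construction.

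For the starts, the background was the share of 4 kb stretches called by the same rule. It was 4.55% higher for stimulated over resting Th2 and 4.71% higher for resting Th1 over naive, where Il18rap was the start called. It was 10.8% higher for resting Th2 over naive, where Il1rl1 was called. For resting Th1 over Th2 it was 1.36% higher, where Il18rap was called, and 4.89% lower, where Il1rl1 was called. For Il1rl1 it was 2.65% lower in stimulated Th1 against Th2 and 2.68% lower in stimulated Th17 against Th2. In each of these 1 start of 3 was called. The starts were chosen with the results known, so no test of the 3 against the background was made.

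Bins of 1 kb, which do not depend on where regions were found, gave 30 of 200 bins called in at least 1 comparison, 22 of them without a named region. Calls were 6 of 28 tested for stimulated over resting Th1 against 18.7% of bins genome-wide, 6 of 32 for stimulated over resting Th2 against 10.4%, 3 of 9 for resting Th1 over naive against 11.1%, 0 of 7 for resting Th2 over naive against 17.2%, and 2 of 7 for resting Th1 over Th2 against 6.7%. For stimulated Th1 over Th2 they were 9 of 50 against 6.06%, for stimulated Th17 over Th1 7 of 79 against 10.1%, and for stimulated Th17 over Th2 15 of 95 against 11.5%. Stimulated Th1 over Th2 thus had 3 higher and 6 lower bins, 4 of the lower ones in a row from 1.5 kb before to 1.5 kb after the Il1rl1 start. Over input, calls were 22 of 75 for stimulated Th17 against 22.6%, 16 of 31 for stimulated Th1 against 43.1%, 19 of 42 for stimulated Th2 against 39.8%, 6 of 8 for resting Th1 against 41.9%, 1 of 1 for resting Th2 against 45.2%, and 1 of 3 in naive cells against 26.3%. The shares of the resting and naive libraries rest on 8, 1 and 3 bins. All 6 share 1 input and a locus chosen with results known, so no excess over the background is read from them.

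The named bins outside the regions include places where the stimulated libraries differed from each other. The bin at chr1:40558001-40559000, between Il18r1 and Il18rap, had 28, 2 and 4 reads in stimulated Th17, Th1 and Th2, and 3, 1 and 0 in resting Th1, resting Th2 and naive cells, against 4 in input. Stimulated Th17 was 6.95 times stimulated Th1 (1.75 to 60.2) and 3.78 times stimulated Th2 (1.32 to 14.8) there. The bin at chr1:40598001-40599000, inside Il18rap, had 21, 1 and 12 reads in stimulated Th17, Th1 and Th2, and 1, 1 and 2 in resting Th1, resting Th2 and naive cells, against 2 in input. Stimulated Th1 was the low one there, at 0.0907 of stimulated Th2 (0.00212 to 0.613), and stimulated Th17 was 10.4 times stimulated Th1 (1.68 to 431), while stimulated Th17 and Th2 were at 2.66 and 2.82 RPM. In Il18r1, the bin at chr1:40527001-40528000 had 43, 18 and 6 reads in stimulated Th17, Th1 and Th2, and 5, 2 and 8 in resting Th1, resting Th2 and naive cells, against 4 in input, and it was called higher than stimulated Th2 in both stimulated Th17, 3.87-fold (1.64 to 11.1), and stimulated Th1, 3.26-fold (1.24 to 10.0). The Th17 library is the deepest, and with all distinct reads used 22 regions were found in the locus, 11 of them new and 8 of these in stimulated Th17 only; the part of depth in these was not tested.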

How the data were processed

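BRG1 ChIP-seq of mouse CD4+ T cells was analysed in 6 libraries and 1 input library, each the only one of its group. Chromatin was cut with micrococcal nuclease and sonicated, precipitated with an anti-BRG1 serum, amplified for 18 cycles and selected at 250 to 300 bases, per the labels' protocols. The deposited files are lists of aligned 34 base reads with chromosome, position and strand, and their score column is 0 in every row of the deposited files. Positions are on mm9, per the submitters' processing notes, with the aligner not given in the sources used here. No file holds read counts made by the authors, so all counts, and all signal in windows, were computed here from the positions.

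Reads at the same position and strand were counted once, chromosome Y was left out, and each read was shifted by 75 bases towards the fragment centre. The files held 8786251, 4419697 and 4830623 reads for stimulated Th17, Th1 and Th2, 2529147 and 2114977 for resting Th1 and Th2, 3533175 for naive cells and 3807367 for input before repeats were removed. Regions were 200 base windows with a Poisson tail of 1e-05 or less against the highest of the genome-wide rate and local input, joined over a gap of 1 window, found in libraries thinned to 1340208 reads and merged over libraries. Reads of the full libraries were then counted in them, so regions were found and counted partly on the same reads. Ratios of RPM have exact conditional binomial intervals, with a floor of 3 counts where a library has 0. A difference was called at 10 or more reads in the pair, a ratio of 3-fold or more and an interval that leaves out 1. Regions named were the 8 with the highest lower bound over input plus every region called in a comparison, and bins named were up to 10 called bins without such a region. The 3 stretches most like the locus were those with the highest Pearson correlation of log2 ratios to input over the 6 libraries. The code was checked on simulated data (Python 3.11.15, numpy 2.4.6, pandas 2.3.3, scipy 1.17.1, matplotlib 3.10.9).

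The members and lists were chosen with earlier results of these data known. Ratios between starts within a library, the ratio of stimulation ratios, other scalings of the start ratios and the 4 kb background were added after seeing the data. Marker genes and other pathway genes were not placed, since no mm9 annotation was used. Alternatives are given in the closing section.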

Additional observations from a re-analysis of the deposited data

Results flagged for a closer look

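The ratio of stimulated to resting reads at the Il18rap start differed between the subsets. It was 1.08 in Th1 and 4.77 in Th2, and the Th1 ratio was 0.229 of the Th2 ratio, with an exact interval of 0.0742 to 0.594 that left out 1. The 4 libraries behind it held 75 reads in stimulated and 32 in resting Th1, and 91 in stimulated and 6 in resting Th2. Each is 1 library, so the interval covers counting error only, and the part of the small resting Th2 library in this value was not tested.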

How the results depend on the processing

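No paired analysis was possible because each group has 1 library, and leaving out a replicate was not possible either. Values below are given with the value reported above after "against". Depth limits the resting and naive libraries most. Leaving repeated reads in, not shifting reads or thinning libraries kept all 8 locus ratios within their intervals, although those near 1 crossed it or met it. In 2 kb in place of 4 kb, the Il18r1 start ratio was 0.615 for stimulated Th17 over Th1, against 0.849, and 0.906 for stimulated Th17 over Th2, against 1.43. The cause of each change was not tested, except where fewer reads or regions follow from the setting itself.

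Regions found in the locus were 9 against 3 in stimulated Th17, 8 against 2 in resting Th1, 8 against 3 in resting Th2 and 3 against 0 in naive cells with all reads kept. With a Poisson tail of 1e-07 they were 2 against 8 in stimulated Th2 and 1 against 2 in resting Th1. Found on all distinct reads they were 19 against 3 in stimulated Th17, 9 against 5 in stimulated Th1, 4 against 2 in resting Th1 and 1 against 0 in naive cells.

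Regions called different, with all reads kept, were 1 against 0 lower for stimulated over resting Th1, 5 against 3 higher for stimulated over resting Th2, 4 against 0 higher for resting Th1 over naive, 2 against 0 higher for resting Th2 over naive, 3 against 1 higher for resting Th1 over Th2, 2 against 0 higher for stimulated Th17 over Th1 and 3 against 0 higher for stimulated Th17 over Th2. With no shift they were 1 against 0 higher for both resting libraries over naive and 2 against 4 lower for stimulated Th17 over Th2. At equal depth they were 0 against 1 lower for stimulated over resting Th2 and for stimulated Th1 over Th2, 1 against 2 lower for stimulated Th17 over Th1 and 0 against 4 lower for stimulated Th17 over Th2. Scaled to the median ratio of regions they were 1 against 0 lower for stimulated over resting Th1, 2 against 1 lower for stimulated over resting Th2 and 1 against 2 lower for stimulated Th17 over Th1. Scaled to bins without regions they were 1 against 0 higher for resting Th2 over naive. On regions found with all distinct reads they were 2 against 1 higher for resting Th1 over Th2, 3 against 0 higher and 0 against 2 lower for stimulated Th17 over Th1, and 5 against 0 higher and 2 against 4 lower for stimulated Th17 over Th2. With at least 20 reads they were 0 against 1 for stimulated over resting Th2 lower, resting Th1 over Th2 higher and stimulated Th1 over Th2 lower, and 2 against 4 lower for stimulated Th17 over Th2. With no minimum they were 4 against 2 lower for stimulated Th17 over Th1. Called and counted on separate reads they were 1 against 3 higher for stimulated over resting Th1, 0 against 3 higher and 0 against 1 lower for stimulated over resting Th2, 0 against 1 higher for resting Th1 over Th2, 0 against 1 lower for stimulated Th1 over Th2, 0 against 2 lower for stimulated Th17 over Th1 and 0 against 4 lower for stimulated Th17 over Th2.

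Bins of 1 kb called, with all reads kept, were 15 against 6 for stimulated over resting Th2, 6 against 3 for resting Th1 over naive, 2 against 0 for resting Th2 over naive, 5 against 2 for resting Th1 over Th2 and 12 against 7 for stimulated Th17 over Th1. At 2-fold, or with bins moved by 500 bases, all 8 counts stayed within 1.5 times.

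The locus ratio to input at equal depth was 1.70, 1.55 and 1.70 in stimulated Th17, Th1 and Th2, 1.15 in resting Th1 and 0.842 in naive cells. Scaled to bins without regions it was 2.57, 2.52 and 2.66 in stimulated Th17, Th1 and Th2, 1.60 in resting Th1 and 1.65 in resting Th2, and the ratio of stimulated to resting Th1 was 1.58. The locus ratios of both resting libraries over naive stayed above 1 when scaled to these bins. Those of stimulated Th17 over Th1 and over Th2 stayed within their counting intervals on this scale. Scaled to the median ratio of regions, the locus ratio was 0.889 for stimulated over resting Th1, 0.811 for resting Th1 over naive and 0.745 for resting Th2 over naive, all 3 reversed, 1.18 for stimulated over resting Th2, 1.90 for stimulated Th17 over Th1 and 1.64 for stimulated Th17 over Th2. The Il18rap start was 0.766 for stimulated Th17 over Th1 and 0.638 for stimulated Th17 over Th2 on that scale, which was added after seeing the data, and that of resting Th1 over naive was 2.54 against 4.07, under the 3-fold rule.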
